A study of Mus musculus with 12 samples.

Results

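The genes Il1a, Il1b, Tnf, Il1rn, Nfkbia, Tnfaip3, Bcl3, Nfkbiz, Cxcl2 and Ccl3 encode the ligands interleukin-1 alpha, interleukin-1 beta and TNF, an antagonist of the interleukin-1 receptor, 4 feedback regulators of the transcription factor NF-kB, and 2 chemokines. They were taken by symbol from bulk RNA sequencing of mouse bone marrow cells, as 10 of the 24444 genes listed in both deposited count tables, and all 10 passed the filter on low counts in each of the 5 comparisons. The mice were C57BL/6, and the 12 libraries fell into 4 groups of 3. MN1_KO marrow came from Hopx-knockout mice with MN1 overexpression, and MN1_WT marrow from Hopx-wildtype mice with MN1 overexpression, both labelled as 16 weeks old. The aged_KO group was marrow of Hopx-knockout mice without MN1 overexpression and the aged_WT group was marrow of their Hopx-wildtype counterparts, both labelled as 18 weeks old. Hopx codes for an unusual, short homeobox protein that works without contacting DNA directly. MN1 is a coregulator of transcription, and mice whose marrow cells overexpress it serve as a model of myeloid leukaemia. How MN1 was introduced, and in which cells Hopx was deleted, is not given in the sources used here. MN1 overexpression, the labelled age and the count table changed together, so they cannot be told apart. The labels do not say that the libraries of a group came from separate mice, so p-values measure only the spread between these libraries.

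Interleukin-1 and TNF bind receptors that switch on the IKK kinases, which mark the inhibitor IkB alpha for destruction and so release NF-kB into the nucleus. NF-kB then turns on genes for further cytokines and chemokines and also for its own brakes, such as IkB alpha itself and the ubiquitin-editing enzyme A20. In bone marrow, neutrophils, monocytes and macrophages are the main makers of interleukin-1 beta, TNF, CXCL2 and CCL3.

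Library totals were between 16544407 and 28409046 expected counts. The deleted gene Hopx was at 3.50, 3.51 and 2.92 CPM (the count scaled by the library total) in MN1_KO libraries, against 27.9, 14.1 and 25.6 CPM in libraries labelled MN1_WT. It was at 0, 0 and 0.121 CPM in aged_KO libraries, against 14.2, 33.6 and 15.3 CPM in aged_WT libraries. Mn1 was at 47.3, 46.3 and 22.1 CPM in MN1_KO replicates 5, 7 and 8, but at 0.395, 36.4 and 0.160 CPM in the libraries labelled MN1_WT replicates 2, 3 and 4. Replicates 2 and 4 thus resembled the 6 aged libraries (0.0704 to 1.18 CPM) in Mn1 and went against their label, so the members' fitted changes that use the labelled MN1_WT group are also given without them. That leaves 1 library in the group, and the test then assumes that it varies like the other groups. Summed CPM of the 14 mature neutrophil genes was 16923 to 60894 in MN1_KO, 24549 to 52689 in labelled MN1_WT, 63777 to 83827 in aged_KO and 51610 to 71383 in aged_WT libraries. These were the highest sums of the marker lists, but each list holds different genes, so the sums do not rank cell types. In bulk samples, fewer cells of a type and less RNA per cell cannot be told apart.

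Promoter sequence was available from RefSeq (GRCm38.p6) for 9 of the 10 genes, all except Nfkbiz, in 12 windows that ran from 250 bases before each annotated start to 50 bases after it. Both strands were searched for the NF-kB consensus. A match stood in 4 of the 12 windows, those of Nfkbia, Tnfaip3, Bcl3 and Cxcl2, and in 4.51% of all 32851 RefSeq promoter windows of the same length. The 250 bases before the start are printed for Nfkbia, the member with the highest level in each group. Tnfaip3 and Cxcl2, which each hold a pair of matches, are printed too. So is Il1a, whose window holds no match and which rose in MN1_KO against aged_KO where 7 others fell. Il1b, Tnf and Ccl3, which were among those 7, had no match either, and Tnfaip3 did not pass there. Capitals mark the bases that match the NF-kB consensus on either strand, and each sequence is the gene's own strand in the build GRCm38.
Nfkbia, chr12:55492648-55492897, minus strand: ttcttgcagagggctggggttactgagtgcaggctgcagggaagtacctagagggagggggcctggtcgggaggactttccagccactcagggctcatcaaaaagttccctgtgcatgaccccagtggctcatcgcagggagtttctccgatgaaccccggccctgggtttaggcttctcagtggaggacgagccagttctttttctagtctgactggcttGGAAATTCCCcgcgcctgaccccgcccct
Tnfaip3, chr10:19015411-19015660, minus strand: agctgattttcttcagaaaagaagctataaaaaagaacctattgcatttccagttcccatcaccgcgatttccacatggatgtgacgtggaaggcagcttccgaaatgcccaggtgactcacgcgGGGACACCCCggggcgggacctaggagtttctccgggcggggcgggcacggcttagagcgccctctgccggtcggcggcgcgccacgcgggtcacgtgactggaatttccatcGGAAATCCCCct
Cxcl2, chr5:90903649-90903898, plus strand: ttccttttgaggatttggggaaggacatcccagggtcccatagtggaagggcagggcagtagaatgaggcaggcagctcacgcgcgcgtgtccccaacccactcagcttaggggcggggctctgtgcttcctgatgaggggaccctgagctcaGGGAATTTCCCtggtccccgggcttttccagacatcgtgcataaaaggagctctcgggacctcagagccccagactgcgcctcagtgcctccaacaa
Il1a, chr2:129309973-129310222, minus strand: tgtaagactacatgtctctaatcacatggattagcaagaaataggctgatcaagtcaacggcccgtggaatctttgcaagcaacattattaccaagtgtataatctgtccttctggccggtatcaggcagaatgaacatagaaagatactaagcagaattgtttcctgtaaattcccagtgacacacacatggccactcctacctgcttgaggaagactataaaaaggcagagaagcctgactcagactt
Counted from the start, the Nfkbia match lay at -29 to -20 and the Tnfaip3 matches at -125 to -116 and at -12 to -3. The Cxcl2 matches, 1 on each strand, overlapped at -97 to -88 and -96 to -87, and the Bcl3 match lay just past the start, at 3 to 12. The AP-1 motif TGANTCA, which reads as TGANTCA on the other strand too, was in the windows of Il1a, Il1rn and Tnfaip3 and in 7.81% of all windows. These are matches of letters, not sites shown to be used.

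Positions are from the GENCODE vM21 annotation of GRCm38. Il1a (chr2:129299610-129309972, minus strand), Il1b (chr2:129364570-129371139, minus strand) and Il1rn (chr2:24336853-24351494, plus strand) share chromosome 2. Tnf is at chr17:35199381-35202007, Tnfaip3 at chr10:19000910-19015657, Nfkbia at chr12:55489410-55492647, Nfkbiz at chr16:55811375-55838899, Bcl3 at chr7:19808462-19822770 and Ccl3 at chr11:83647844-83649355, all on the minus strand, and Cxcl2 at chr5:90903871-90905938 on the plus strand. Genes on the opposite strand overlap Il1a (Gm14023), Il1b (Il1bos) and Bcl3 (Gm16175 and Gm16174). The library kit keeps strand, but the strand setting of the counting is not given in the sources used here, so reads of these 3 genes and of their partners cannot be told apart with certainty.

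Between genes, levels were compared per length, in TPM, which scales by gene length and by library. Nfkbia, which encodes IkB alpha, had the highest mean level of the 10 genes in each group, with 69.2 ± 21.1 TPM in MN1_KO, 109 ± 25.0 TPM in labelled MN1_WT, 224 ± 19.5 TPM in aged_KO and 199 ± 69.5 TPM in aged_WT (SD, n = 3 each). Il1a, the membrane-associated form of interleukin-1, had the lowest in each group, with 1.76 ± 1.21, 1.28 ± 0.127, 0.0867 ± 0.00577 and 0.583 ± 0.0252 TPM in the same 4 groups. Il1b came next after Nfkbia in labelled MN1_WT (75.0 ± 32.4 TPM), aged_KO (159 ± 70.4 TPM) and aged_WT (151 ± 63.8 TPM). In MN1_KO its antagonist Il1rn came next, at 38.5 ± 16.3 TPM, ahead of Il1b at 15.9 ± 4.62 TPM. The middle of the order was close. In MN1_KO, Il1b, Tnf (15.4 ± 6.49 TPM), Tnfaip3 (13.8 ± 4.21 TPM), Bcl3 (13.5 ± 2.73 TPM), Nfkbiz (13.4 ± 3.34 TPM) and Ccl3 (10.9 ± 1.98 TPM) followed each other, and each differed from the next by less than the larger SD of the pair. The order was not the same in all groups. Cxcl2 ranked 9 of 10 in MN1_KO (4.96 ± 3.58 TPM) and in labelled MN1_WT (12.6 ± 6.22 TPM) but 4 of 10 in aged_KO (101 ± 30.9 TPM) and in aged_WT (64.1 ± 74.9 TPM).

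**Figure D1:**
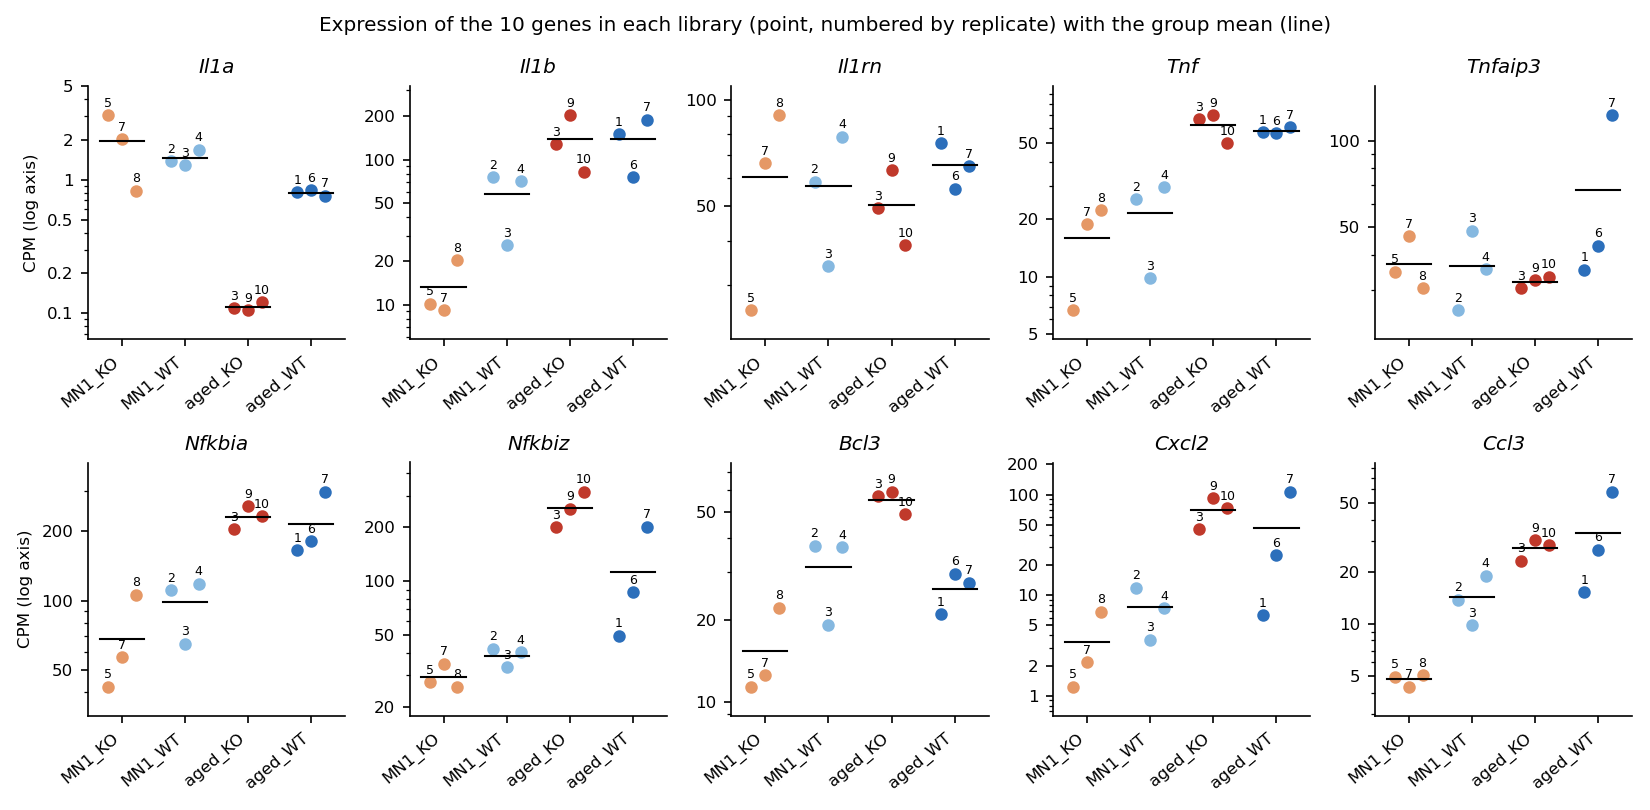
CPM on a log axis for each of the 10 genes, with 1 point per library, numbered by replicate, and a line at the group mean of 3 libraries. Il1a is lowest in the 3 aged_KO libraries, Bcl3 is higher in the 3 aged_KO than in the 3 aged_WT libraries, and aged_WT replicate 7 is the highest of the 6 aged libraries for 4 genes.

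Loss of Hopx in aged marrow was compared first, as aged_KO against aged_WT. Il1a fell and Bcl3 rose, and the other 8 genes did not pass the test. Both changes exceeded the spread between replicates, and neither group overlapped the other for these 2 genes or for Tnfaip3, beside 50.9% of all genes without overlap (12.5% higher, 38.4% lower). Across all 12771 genes tested, 31.4% passed at an adjusted p under 0.05 in either direction, 15.6% higher and 15.8% lower, so 2 of 10 members is not above the background. The split of 1987 higher and 2021 lower became 1046 and 3381 with library totals in place of TMM scaling, with the same 2 members past the threshold. The median of the 10 members was log2 0.24, against -0.02 over all genes tested.

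Among the ligands, Il1a was at 0.110, 0.106 and 0.121 CPM in aged_KO replicates 3, 9 and 10, against 0.807, 0.837 and 0.760 CPM in aged_WT replicates 1, 6 and 7. All 3 aged_KO libraries were lower, by log2 -2.60 ± 0.42 (SE; edgeR adjusted p = 0.00286). The level rests on few reads: 2, 3 and 2 expected counts in aged_KO and 15, 18 and 15 in aged_WT, and the ratio of the summed rates was 0.138 with an exact 95% interval of 0.0527 to 0.307, which covers counting error only. Il1b, the secreted interleukin-1 that caspase-1 cleaves, was at 128, 202 and 82.6 CPM in aged_KO, against 150.2, 76.0 and 188 CPM in aged_WT. Both groups spanned nearly the same range (log2 0.20 ± 0.46, edgeR adjusted p = 0.78), and the sign of the small difference turned with library totals as the scaling (log2 -0.00). Tnf, the founding member of the TNF family, was at 66.8, 70.0 and 50.2 CPM in aged_KO, against 57.0, 56.5 and 60.7 CPM in aged_WT. Replicate 10 was the lowest and replicates 3 and 9 the highest of the 6 libraries, and the difference did not pass (log2 0.29 ± 0.14, edgeR adjusted p = 0.14). Without aged_KO replicate 10 it did, at log2 0.43 (edgeR adjusted p = 0.0123).

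Il1rn, the receptor antagonist that competes with both forms of interleukin-1, was at 49.5, 63.2 and 38.8 CPM in aged_KO, against 75.6, 56.1 and 64.8 CPM in aged_WT. The groups overlapped and the difference did not pass (log2 -0.18 ± 0.20, edgeR adjusted p = 0.526).

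Among the feedback regulators, Bcl3, an atypical IkB protein of the nucleus that joins the NF-kB subunits p50 and p52, was at 57.1, 59.2 and 48.9 CPM in aged_KO, against 21.0, 29.6 and 27.4 CPM in aged_WT. Every aged_KO library was higher than every aged_WT library (log2 1.27 ± 0.15, edgeR adjusted p = 0.000781). With all 12 libraries in 1 fit the change was log2 1.25 at an edgeR adjusted p of 0.0668, past the threshold no longer. Nfkbiz, the other atypical IkB of the group and a coactivator of secondary response genes, was at 200.1, 254 and 316 CPM in aged_KO, against 49.8, 86.9 and 202 CPM in aged_WT. Only aged_WT replicate 7 reached the aged_KO range (log2 1.38 ± 0.53, edgeR adjusted p = 0.102). Without replicate 7 Nfkbiz passed, at log2 2.08 (edgeR adjusted p = 0.00507).

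Nfkbia, the classical inhibitor that holds NF-kB in the cytoplasm, was at 205, 257 and 232 CPM in aged_KO, against 166, 182 and 298 CPM in aged_WT. The aged_KO values lay between aged_WT replicates 6 and 7, and the difference did not pass (log2 0.30 ± 0.22, edgeR adjusted p = 0.334), while without replicate 7 it did, at log2 0.58 (edgeR adjusted p = 0.0354). Tnfaip3, which encodes A20, was at 30.5, 32.6 and 33.5 CPM in aged_KO, against 35.4, 42.9 and 123 CPM in aged_WT. All 3 aged_KO libraries were lower in CPM, as were 38.4% of all genes tested, but the fitted difference did not pass (log2 -0.86 ± 0.49, edgeR adjusted p = 0.235) and was log2 -0.11 without replicate 7.

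The chemokines varied more within aged_WT than between the groups. Cxcl2, which draws neutrophils through the receptor CXCR2, was at 45.1, 92.3 and 73.0 CPM in aged_KO, against 6.30, 25.1 and 107 CPM in aged_WT. The aged_WT libraries held both the lowest and the highest of the 6 values (log2 0.83 ± 0.99, edgeR adjusted p = 0.57). Ccl3, a ligand of CCR1, was at 23.2, 30.5 and 28.6 CPM in aged_KO, against 15.2, 26.8 and 58.1 CPM in aged_WT, and again aged_WT held both ends (log2 -0.08 ± 0.48, edgeR adjusted p = 0.914). Its fitted difference turned to log2 0.56 without aged_WT replicate 7.

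In aged_WT, 1 library was looked at by itself, a choice made after the values were seen. Replicate 7 was above both other aged_WT libraries in 7 of the 10 genes and below both in 1, against 46.2% and 29.5% of all 12523 genes of that group. Relative to the mean of replicates 1 and 6, its level was 6.81 times as high for Cxcl2, 3.13 for Tnfaip3, 2.95 for Nfkbiz, 2.77 for Ccl3, 1.71 for Nfkbia and 1.67 for Il1b. It was 1.08 times as high for Bcl3, 1.07 for Tnf, 0.985 for Il1rn and 0.925 for Il1a. The same library was above both others in 19 of 20 immediate early genes, and below both in 11 of 14 mature neutrophil and 9 of 16 monocyte and macrophage genes. Their part in these levels was not tested. Without replicate 7, 4 members passed in aged_KO against aged_WT, Il1a lower and Bcl3, Nfkbia and Nfkbiz higher, while the count over all genes was 2402 in place of 4008.

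Other cell types differed between the aged groups as well, where 31.4% of all genes passed (15.6% higher, 15.8% lower). All 12 B cell genes fell in aged_KO, where their summed CPM was 30.8 to 43.7, against 513 to 1151 CPM in aged_WT, with Vpreb1 at 0 in aged_KO replicate 3 and Rag1 at 0 in replicate 10. Of 14 mature neutrophil genes 6 rose and none fell, of 16 monocyte and macrophage genes 4 fell and none rose, and of 12 T and NK cell genes 11 fell. Of 10 dendritic cell genes 8 fell, of 11 erythroid genes 7 fell, and of the 8 genes of basophils and mast cells 3 were lower and 1 higher. With all 12 libraries in 1 fit the 12 B cell genes and 10 of the T and NK cell genes fell, but no neutrophil, basophil or mast cell gene passed, and 3 dendritic cell, 2 erythroid and 2 monocyte and macrophage genes fell. The part of these shifts in the changes of Il1a and Bcl3 was not tested.

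Loss of Hopx with MN1 overexpression, MN1_KO against MN1_WT as labelled, gave lower values of Il1b and Ccl3 in every MN1_KO library, but no member passed the test. No gene of the 13525 tested passed edgeR's adjusted threshold (0%), 1353 genes (10%) had an unadjusted p under 0.05, Il1b and Ccl3 among them, and DESeq2 called 565. The deleted gene Hopx did not pass either (log2 -2.84 ± 0.38, edgeR adjusted p = 0.129). A gene that did not pass in this fit is therefore not shown to be unchanged. Beside the 15.1% of all genes whose CPM did not overlap between these groups (8.33% lower, 6.73% higher), 2 of 10 members did not overlap, both lower. The median of the 10 members was log2 -0.49, against 0.03 over all genes tested, and its sign turned without labelled replicates 2 and 4 (0.07, against 0.02 over all genes).

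Il1b was at 10.2, 9.18 and 20.2 CPM in MN1_KO replicates 5, 7 and 8, against 76.0, 25.7 and 71.5 CPM in the libraries labelled MN1_WT replicates 2, 3 and 4. All 3 MN1_KO libraries were lower, with the gap narrow against replicate 3 (log2 -2.16 ± 0.60, edgeR adjusted p = 0.292). Ccl3 was at 4.94, 4.33 and 5.05 CPM in MN1_KO, against 13.8, 9.80 and 19.0 CPM in labelled MN1_WT. The MN1_KO values were within 1 CPM of each other and below all labelled MN1_WT values (log2 -1.63 ± 0.38, edgeR adjusted p = 0.243). DESeq2 called both genes, at an adjusted p of 0.0104 for Il1b and 0.00319 for Ccl3, and edgeR did so without MN1_WT replicate 3, at adjusted p = 0.0374 and 0.0294. With replicate 3 alone as the labelled MN1_WT group, which assumes that it varies like the MN1_KO libraries, the difference was log2 -0.75 ± 0.64 for Il1b and -0.87 ± 0.46 for Ccl3, and neither passed (edgeR adjusted p = 1.00 for both).

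Bcl3 was at 11.4, 12.5 and 22.2 CPM in MN1_KO, against 37.5, 19.3 and 37.1 CPM in labelled MN1_WT. MN1_KO replicate 8 lay above labelled MN1_WT replicate 3, so the groups overlapped (log2 -1.04 ± 0.47, edgeR adjusted p = 0.537), and without labelled replicates 2 and 4 the difference was log2 -0.12. Cxcl2 was at 1.23, 2.16 and 6.87 CPM in MN1_KO, against 11.9, 3.61 and 7.45 CPM in labelled MN1_WT (log2 -1.13 ± 0.83, edgeR adjusted p = 0.744). Nfkbia was at 42.2, 56.8 and 106 CPM in MN1_KO, against 111, 64.9 and 118 CPM in labelled MN1_WT (log2 -0.53 ± 0.49, edgeR adjusted p = 0.804). In both genes MN1_KO replicate 8 lay above labelled MN1_WT replicate 3, so the groups overlapped.

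Tnf was at 6.70, 18.8 and 22.4 CPM in MN1_KO, against 25.4, 9.88 and 29.5 CPM in labelled MN1_WT. Each group held 1 library well below its other values, and the groups overlapped (log2 -0.46 ± 0.64, edgeR adjusted p = 0.861). Nfkbiz was at 27.4, 34.8 and 25.8 CPM in MN1_KO, against 42.1, 33.3 and 40.1 CPM in labelled MN1_WT (log2 -0.44 ± 0.23, edgeR adjusted p = 0.622). Il1a was at 3.04, 2.02 and 0.827 CPM in MN1_KO, against 1.38, 1.29 and 1.68 CPM in labelled MN1_WT, so that the MN1_KO libraries lay on both sides (log2 0.34 ± 0.51, edgeR adjusted p = 0.873).

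The antagonist Il1rn and the A20 gene Tnfaip3 had the smallest fitted differences of the 10. Il1rn was at 25.5, 66.2 and 90.4 CPM in MN1_KO, against 58.7, 33.9 and 78.7 CPM in labelled MN1_WT, with MN1_KO holding both ends (log2 0.08 ± 0.59, edgeR adjusted p = 0.978). Tnfaip3 was at 34.9, 46.3 and 30.5 CPM in MN1_KO, against 25.6, 48.5 and 35.5 CPM in labelled MN1_WT, with labelled MN1_WT holding both ends (log2 0.02 ± 0.25, edgeR adjusted p = 0.99, and -0.01 with RLE size factors, with DESeq2 or with all 12 libraries in 1 fit). Without labelled replicates 2 and 4 the fitted differences of Tnf, Nfkbia and Cxcl2 turned positive, at log2 0.90, 0.29 and 0.17, and that of Tnfaip3 turned negative, at -0.23. Those of Nfkbiz, Il1a and Il1rn were then log2 -0.03, 0.71 and 1.06. None of the 10 passed.

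Within the labelled MN1_WT group the libraries divided in the same way as their Mn1 level. Replicate 3, the library with Mn1 at 36.4 CPM, was below both replicates 2 and 4 in 9 of the 10 genes and above them in Tnfaip3, against 31.9% and 58.2% of all 12553 genes of that group. Replicates 2 and 4 were the highest pair of the 6 MN1 libraries for Il1b, Tnf, Nfkbia, Nfkbiz, Bcl3, Cxcl2 and Ccl3, that is 7 of 10 members, against 15.7% of the 13525 genes tested, a count made after the values were seen. Replicate 3 was also below both in 14 of 14 mature neutrophil genes, 15 of 16 monocyte and macrophage genes and 19 of 20 immediate early genes, and its summed B cell level was 55.2 CPM where the group reached 416 CPM. The part of these lists in the members' levels was not tested.

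**Figure D2:**
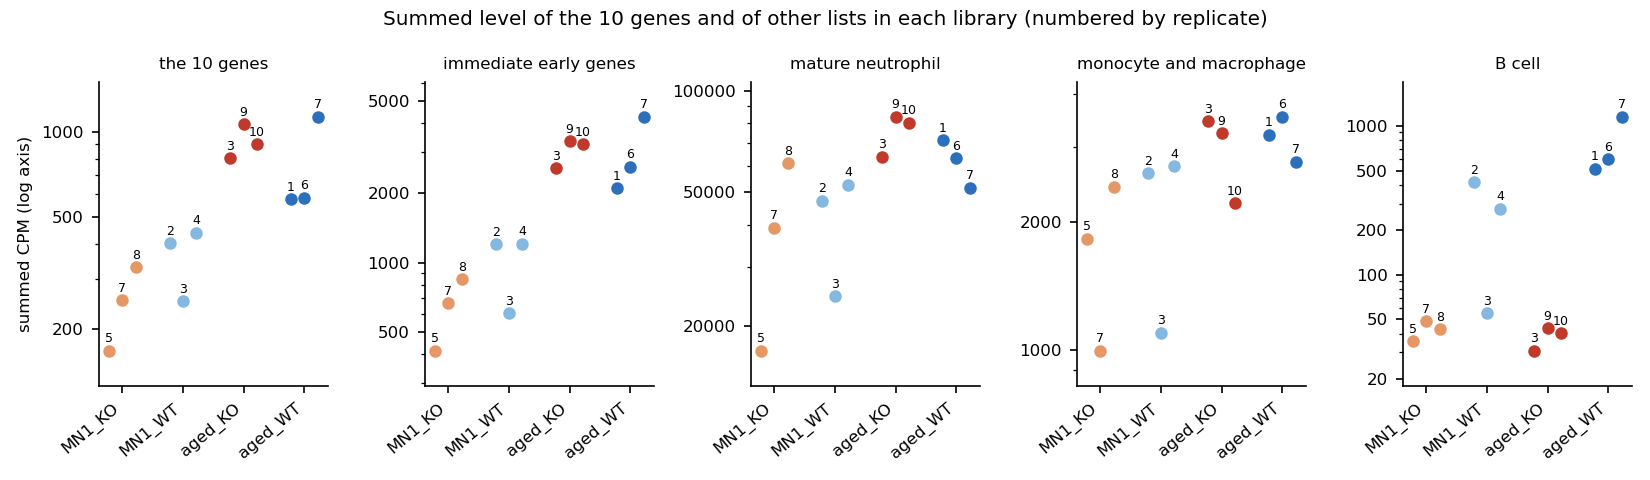
Summed CPM on a log axis of the 10 genes, 20 immediate early genes, 14 mature neutrophil, 16 monocyte and macrophage and 12 B cell genes, with 1 point per library, numbered by replicate. The 10 genes sum to 167 to 330 CPM in MN1_KO, 250.2 to 439 CPM in labelled MN1_WT, 805 to 1062 CPM in aged_KO, against 578 to 1130 CPM in aged_WT libraries, and the immediate early genes are likewise lowest in the MN1 libraries.

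More members passed between the knockout groups, MN1_KO against aged_KO, than in any other comparison here. Il1a rose, and Il1b, Tnf, Nfkbia, Nfkbiz, Bcl3, Cxcl2 and Ccl3 fell, while Il1rn and Tnfaip3 did not pass. The 8 members that passed stood beside 37.9% of all 13937 genes tested that did so, 21.1% higher and 16.8% lower, or 2936 higher and 2345 lower, which became 5350 and 1358 with library totals as the scaling. MN1_KO and aged_KO libraries did not overlap for any of the 8, against 54.6% of all genes. The groups come from different count tables and differ in labelled age, so MN1, age and table cannot be told apart in these values.

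The ligands moved in opposite directions. Il1a was at 1.96 ± 1.11 CPM in MN1_KO, against 0.112 ± 0.0079 CPM in aged_KO (SD, n = 3 each), a rise of log2 3.66 ± 0.50 (edgeR adjusted p = 0.00131) against 2 or 3 counts in each aged_KO library. Il1b was at 13.2 ± 6.12 CPM in MN1_KO, against 138 ± 60.5 CPM in aged_KO (log2 -3.72 ± 0.60, edgeR adjusted p = 0.00255). Tnf was at 16.0 ± 8.22 CPM in MN1_KO, against 62.3 ± 10.7 CPM in aged_KO (log2 -2.29 ± 0.51, edgeR adjusted p = 0.008). The highest MN1_KO library lay below the lowest aged_KO library for Il1b and for Tnf, and the order was the other way round for Il1a. For the antagonist Il1rn the means were 60.7 ± 32.8 CPM in MN1_KO, against 50.5 ± 12.2 CPM in aged_KO, with the MN1_KO libraries on both sides (log2 -0.06 ± 0.47, edgeR adjusted p = 0.931, and 0.26 with library totals).

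The nuclear IkB genes and Nfkbia fell with the cytokines. Nfkbiz was at 29.3 ± 4.77 CPM in MN1_KO, against 257 ± 58.1 CPM in aged_KO (log2 -3.51 ± 0.44, edgeR adjusted p = 0.00105). Bcl3 was at 15.4 ± 5.95 CPM in MN1_KO, against 55.1 ± 5.47 CPM in aged_KO (log2 -2.17 ± 0.37, edgeR adjusted p = 0.0031), and Nfkbia at 68.4 ± 33.4 CPM in MN1_KO, against 231 ± 26.3 CPM in aged_KO (log2 -2.08 ± 0.42, edgeR adjusted p = 0.00568). Tnfaip3 did not follow them, at 37.2 ± 8.15 CPM in MN1_KO, against 32.2 ± 1.55 CPM in aged_KO (log2 -0.17 ± 0.39, edgeR adjusted p = 0.744, and 0.21 with library totals). Of the chemokines, Cxcl2 was at 3.42 ± 3.02 CPM in MN1_KO, against 70.1 ± 23.8 CPM in aged_KO (log2 -4.67 ± 1.04, edgeR adjusted p = 0.00819), and Ccl3 at 4.77 ± 0.387 CPM in MN1_KO, against 27.4 ± 3.77 CPM in aged_KO (log2 -2.89 ± 0.45, edgeR adjusted p = 0.0023). The median of the 10 members was log2 -2.23, against 0.08 over all genes tested. The same 8 members passed under each alternative tried, including the removal of each of the 6 libraries in turn, where the count over all genes ran from 2515 without aged_KO replicate 9 to 7366 without MN1_KO replicate 8, against 5281.

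**Figure D3:**
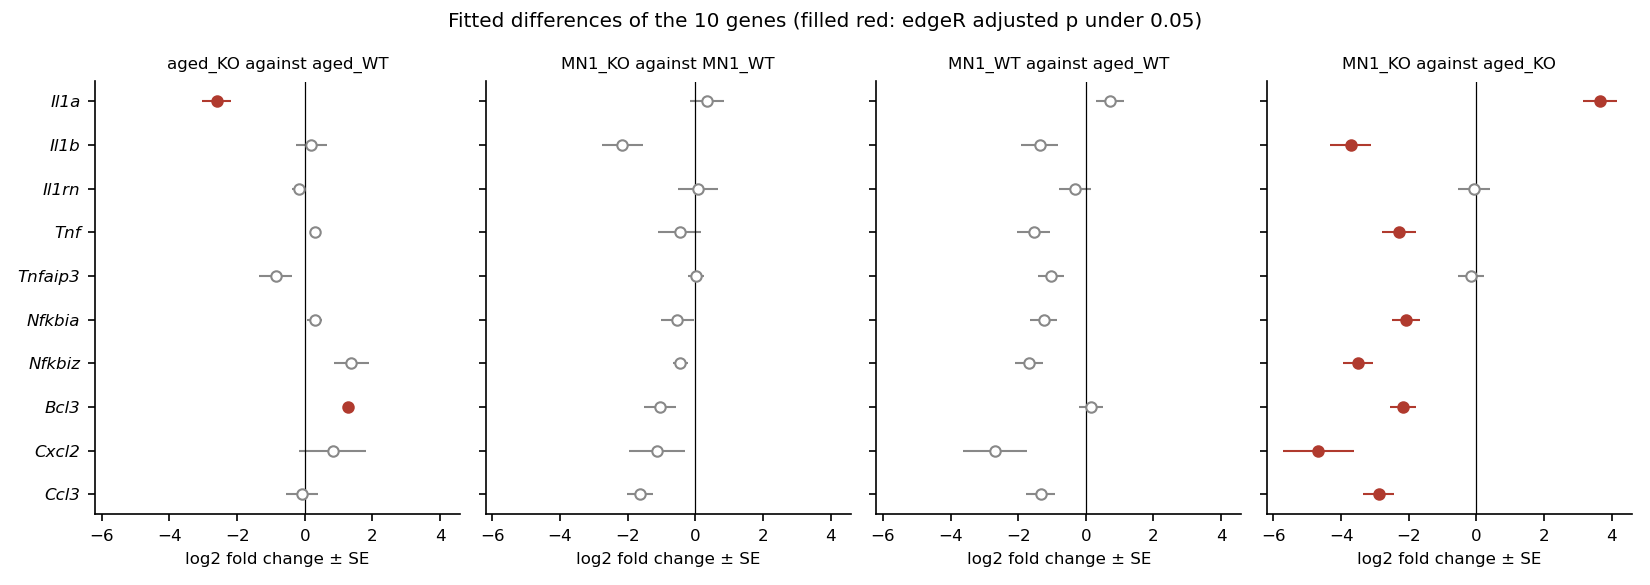
Fitted log2 fold change of each gene with its SE in 4 comparisons, filled where the edgeR adjusted p is under 0.05. In aged_KO against aged_WT 2 genes are filled, in MN1_KO against MN1_WT and MN1_WT against aged_WT none, and in MN1_KO against aged_KO 8, all to the left of 0 but Il1a.

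Cell type genes moved between the same groups, where 37.9% of all genes passed (21.1% higher, 16.8% lower). Of 14 mature neutrophil genes 10 fell and 1 rose in MN1_KO against aged_KO (median log2 -1.99), and of 16 monocyte and macrophage genes 5 fell and 2 rose (3 and 3 with library totals). The summed monocyte and macrophage level was 998 to 2427 CPM in MN1_KO, against 2219 to 3455 CPM in aged_KO. Of 20 immediate early genes 15 fell and none rose (median log2 -2.18), with sums of 415 to 848 CPM in MN1_KO against 2565 to 3358 CPM in aged_KO. Genes of other cells did not all move the same way. Of 12 T and NK cell genes 6 were higher and 1 lower in MN1_KO against aged_KO (median log2 1.19). Their summed CPM overlapped, at 149 to 174 in MN1_KO and 119 to 197 in aged_KO. Of the 8 genes of basophils and mast cells 4 were higher and none lower (median log2 1.64). Of 10 dendritic cell genes 2 were higher and 3 lower (median log2 -0.52). Of 12 B cell genes 1 was higher and 1 lower (median log2 -0.77). Of 11 erythroid genes 1 was higher and 1 lower (median log2 -0.34). The part of each in the members' changes was not tested.

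Between the groups labelled wild type, MN1_WT against aged_WT, no member passed, beside 3.58% of all 13937 genes tested by edgeR (2.58% lower and 1% higher, 359 and 140 genes, or 255 and 169 with library totals). At an unadjusted p under 0.05 there were 7 members and 24.4% of all genes (3398). The median of the 10 members was log2 -1.30, against 0.06 over all genes tested. It was -0.84 without aged_WT replicate 7 and -2.03 without labelled MN1_WT replicates 2 and 4. Nfkbiz came closest, at 38.5 ± 4.62 CPM in labelled MN1_WT, against 113 ± 79.2 CPM in aged_WT (SD, n = 3 each; log2 -1.67 ± 0.41, edgeR adjusted p = 0.0502). Tnf was at 21.6 ± 10.4 CPM in labelled MN1_WT, against 58.0 ± 2.3 CPM in aged_WT (log2 -1.54 ± 0.49, edgeR adjusted p = 0.0994), and Nfkbia at 98.2 ± 29.0 CPM in labelled MN1_WT, against 215 ± 71.9 CPM in aged_WT (log2 -1.25 ± 0.41, edgeR adjusted p = 0.105). Il1b was at 57.7 ± 27.8 CPM in labelled MN1_WT, against 138 ± 57.2 CPM in aged_WT (log2 -1.37 ± 0.55, edgeR adjusted p = 0.162). The CPM of these 4 genes did not overlap between the groups, all lower in labelled MN1_WT, and that of Il1a did not overlap either, higher in labelled MN1_WT (1.45 ± 0.206 CPM against 0.802 ± 0.0386 CPM, log2 0.71 ± 0.41, edgeR adjusted p = 0.304), beside 40.6% of all genes (13.4% lower, 27.2% higher).

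The other members did overlap. Cxcl2 was at 7.64 ± 4.13 CPM in labelled MN1_WT, against 46.1 ± 53.4 CPM in aged_WT (log2 -2.68 ± 0.95, edgeR adjusted p = 0.125), and Ccl3 at 14.2 ± 4.62 CPM in labelled MN1_WT, against 33.4 ± 22.2 CPM in aged_WT (log2 -1.34 ± 0.42, edgeR adjusted p = 0.0953). Tnfaip3 was at 36.5 ± 11.5 CPM in labelled MN1_WT, against 67.0 ± 48.4 CPM in aged_WT (log2 -1.03 ± 0.39, edgeR adjusted p = 0.141). Bcl3 was at 31.3 ± 10.4 CPM in labelled MN1_WT, against 26.0 ± 4.49 CPM in aged_WT (log2 0.14 ± 0.36, edgeR adjusted p = 0.822), and Il1rn at 57.1 ± 22.4 CPM in labelled MN1_WT, against 65.5 ± 9.74 CPM in aged_WT (log2 -0.32 ± 0.47, edgeR adjusted p = 0.694). DESeq2 called 5 members lower, Tnf, Nfkbia, Nfkbiz, Cxcl2 and Ccl3. With replicate 3 as the only library labelled MN1_WT, assumed to vary like the other groups, Il1b (log2 -2.72, edgeR adjusted p = 0.0459) and Tnf (log2 -2.85, edgeR adjusted p = 0.0229) passed, and 2465 genes did in place of 499. The other 8 did not pass there, with Nfkbia, Nfkbiz, Ccl3 and Cxcl2 at log2 -2.02, -2.05, -2.05 and -3.95, Il1rn, Tnfaip3 and Bcl3 at -1.25, -0.75 and -0.73, and Il1a at 0.38. Of 20 immediate early genes 6 fell in labelled MN1_WT and none rose; 2 fell without aged_WT replicate 7 and 8 without labelled MN1_WT replicates 2 and 4.

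The effect of Hopx loss was then compared between the MN1 and the aged tables, as the difference between the knockout's log2 change with MN1 overexpression and its change in aged marrow. It passed for 2 members, beside 3.32% of all 13937 genes (1.41% higher and 1.92% lower, 196 and 267 genes, or 345 and 219 with library totals). Hopx itself passed too (log2 6.12 ± 0.96, edgeR adjusted p = 0.0134), at 3.31 ± 0.34 CPM in MN1_KO and 0.0403 ± 0.0698 CPM in aged_KO. The knockout groups thus differed in their remaining Hopx level, and its part in the members' differences was not tested. For Il1a the difference was log2 2.95 ± 0.64 (edgeR adjusted p = 0.0378), between a log2 change of 0.34 in MN1_KO against labelled MN1_WT and of -2.60 in aged_KO against aged_WT. For Bcl3 it was log2 -2.31 ± 0.51 (edgeR adjusted p = 0.0393), between -1.04 in MN1_KO against labelled MN1_WT and 1.27 in aged_KO against aged_WT. Both calls were lost in 10 of the 12 removals of 1 library, all but those of labelled MN1_WT replicate 3 and MN1_KO replicate 8, and Il1a's also with no filter on low counts. Neither passed without labelled MN1_WT replicates 2 and 4 (log2 3.25, edgeR adjusted p = 0.175 for Il1a and log2 -1.46, edgeR adjusted p = 0.331 for Bcl3). Nfkbiz (log2 -1.83 ± 0.57, edgeR adjusted p = 0.0987), Il1b (log2 -2.36 ± 0.77, edgeR adjusted p = 0.111) and Ccl3 (log2 -1.55 ± 0.60, edgeR adjusted p = 0.162) did not pass. The remaining 5 members had an edgeR adjusted p of 0.371 or more. Without those 2 libraries the differences of Nfkbiz, Il1b, Ccl3 and Cxcl2 were log2 -1.49, -1.03, -0.87 and -0.75, those of Il1rn, Tnfaip3 and Tnf 1.16, 0.55 and 0.54, and that of Nfkbia -0.08.

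The lists that follow hold other genes of the pathway, and their medians stand beside medians over all genes of log2 -0.02 in aged_KO against aged_WT and 0.08 in MN1_KO against aged_KO, which became -0.20 and 0.46 with library totals in place of TMM. Their counts stand beside the 31.4% and 37.9% of all genes that passed in these 2 comparisons. The share was 3.32% in the difference of knockout effects. Of 13 NF-kB subunit and IKK kinase genes, 2 rose and none fell in aged_KO against aged_WT (median log2 0.07), the IKK kinase gene Chuk by log2 0.29 ± 0.087 and the IKK scaffold gene Ikbkg by 0.31 ± 0.10 (edgeR adjusted p = 0.0318 and 0.0454). Neither passed with library totals, with all 12 libraries in 1 fit or without aged_WT replicate 7. The comparison of MN1_KO with aged_KO had 1 higher and 4 lower (median log2 -0.24), or 2 and 1 with library totals, where the median was 0.13. There the non-canonical pathway kinase gene Map3k14 was at 14.9 ± 1.17 CPM in MN1_KO, against 24.6 ± 4.97 CPM in aged_KO (log2 -1.08 ± 0.21, edgeR adjusted p = 0.00514). The TAK1-binding genes Tab2 and Tab1 went opposite ways, by log2 -0.60 ± 0.13 and 0.70 ± 0.18 (edgeR adjusted p = 0.00673 and 0.0128), and Tab2 did not pass with library totals (log2 -0.22).

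Among 19 genes of interleukin-1 processing and signalling, 8 rose and 1 fell in aged_KO against aged_WT (median log2 0.19), or 5 and 3 with library totals (median 0.01) and 1 and 0 with all 12 libraries in 1 fit. Myd88, the adaptor that links the interleukin-1 receptor to its kinases, was at 167 ± 6.74 CPM in aged_KO, against 104 ± 6.45 CPM in aged_WT (log2 0.86 ± 0.11, edgeR adjusted p = 0.000914). The coreceptor gene Il1rap was at 58.4 ± 3.79 CPM in aged_KO, against 32.3 ± 4.76 CPM in aged_WT (log2 1.04 ± 0.14, edgeR adjusted p = 0.00131), and the kinase gene Irak4 at 65.7 ± 5.15 CPM in aged_KO, against 48.7 ± 2.35 CPM in aged_WT (log2 0.61 ± 0.10, edgeR adjusted p = 0.0035). In MN1_KO against aged_KO 2 rose and 7 fell (median log2 -0.24), or 4 and 6 with library totals, where the median was 0.15. The ubiquitin ligase gene Peli1 and Irak4 fell by log2 -1.09 ± 0.16 and -0.99 ± 0.16 (edgeR adjusted p = 0.00182 and 0.00235), and Sigirr, a decoy-like member of the receptor family that dampens interleukin-1 signals, rose by 1.73 ± 0.27 (edgeR adjusted p = 0.00222). The difference between the knockout effects passed for 1 of the 19 genes, Irak4 (log2 -0.92 ± 0.22, edgeR adjusted p = 0.0478), and not without labelled MN1_WT replicates 2 and 4 (log2 -0.59, edgeR adjusted p = 0.373).

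Among 17 genes of TNF processing and signalling, 6 rose and 3 fell in aged_KO against aged_WT (median log2 0.15), or 3 and 3 with library totals (median -0.03), 1 and 0 with all 12 libraries in 1 fit, and 2 and 0 without aged_WT replicate 7. The caspase-8 inhibitor gene Cflar was at 169 ± 24.6 CPM in aged_KO, against 116 ± 3.89 CPM in aged_WT (log2 0.72 ± 0.12, edgeR adjusted p = 0.00349), the iRhom2 gene Rhbdf2, needed for TNF release, rose by log2 0.58 ± 0.13 (edgeR adjusted p = 0.00985) and the receptor gene Tnfrsf1a by 0.62 ± 0.16 (edgeR adjusted p = 0.018). Between MN1_KO and aged_KO none rose and 4 fell (median log2 -0.31), or 3 and 3 with library totals (median 0.09). Among the 4 were the kinase genes Ripk1 (log2 -0.84 ± 0.16, edgeR adjusted p = 0.00411) and Map3k8 (-1.72 ± 0.43, edgeR adjusted p = 0.0133) and the ubiquitin ligase gene Birc3 (-1.10 ± 0.18, edgeR adjusted p = 0.00277).

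Of 15 other feedback genes, 3 rose and 1 fell in aged_KO against aged_WT (median log2 0.34), or 1 and 1 with all 12 libraries in 1 fit, beside the 31.4% of all genes that passed there. Socs3, an inhibitor of cytokine receptor signalling, was at 85.05 ± 14.1 CPM in aged_KO, against 40.5 ± 6.13 CPM in aged_WT (log2 1.26 ± 0.17, edgeR adjusted p = 0.00136). N4bp1 and Pdlim2 rose by log2 0.75 ± 0.12 and 0.55 ± 0.11 (edgeR adjusted p = 0.003 and 0.00627). Between MN1_KO and aged_KO 2 of the 15 rose and 8 fell (median log2 -0.54), or 2 and 5 with library totals. Socs3 was at 13.6 ± 2.56 CPM in MN1_KO (log2 -3.01 ± 0.30, edgeR adjusted p = 0.000545), and the stress gene Ier3 and the MAP kinase phosphatase gene Dusp1 fell by log2 -2.20 ± 0.32 and -3.91 ± 0.66 (edgeR adjusted p = 0.00161 and 0.00304). In MN1_WT as labelled against aged_WT 1 of the 15 fell, Ier3 (log2 -1.62 ± 0.31, edgeR adjusted p = 0.0211; log2 -2.25, edgeR adjusted p = 0.0123, without replicates 2 and 4). Without aged_WT replicate 7 none of the 15 passed, with Ier3 at log2 -1.51 (edgeR adjusted p = 0.0847). The difference between the knockout effects passed for Socs3 alone of the 15 (log2 -2.81 ± 0.41, edgeR adjusted p = 0.0114), and not without labelled MN1_WT replicates 2 and 4 (log2 -2.06, edgeR adjusted p = 0.0721).

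Among other cytokines and effectors that NF-kB induces, 7 of 24 tested rose and 7 fell in aged_KO against aged_WT (median log2 -0.17), or 3 and 2 of 25 with all 12 libraries in 1 fit; without aged_WT replicate 7 they were 8 and 5, with a median of 0.17. The nitric oxide synthase gene Nos2 was at 14.8 ± 10.2 CPM in aged_KO, against 0.251 ± 0.0887 CPM in aged_WT (log2 6.01 ± 0.68, edgeR adjusted p = 0.00165), and the urokinase receptor gene Plaur at 269.6 ± 7.59 CPM in aged_KO, against 164 ± 2.02 CPM in aged_WT (log2 0.90 ± 0.10, edgeR adjusted p = 0.000781). Cd40, a TNF receptor family gene of B cells and other antigen-presenting cells, fell by log2 -2.26 ± 0.32 (edgeR adjusted p = 0.00166). In MN1_KO against aged_KO 6 of 25 tested rose and 7 fell (median log2 -0.62), with Nos2, the lectin gene Clec4e and the prostaglandin synthase gene Ptgs2 lower by log2 -4.77 ± 0.60, -1.92 ± 0.27 and -5.29 ± 0.83 (edgeR adjusted p = 0.00105, 0.00155 and 0.00235). The difference between the knockout effects passed for 2 of the 25, Nos2 (log2 -6.56, edgeR adjusted p = 0.00655) and Clec4e (log2 -1.74, edgeR adjusted p = 0.0359). Without labelled MN1_WT replicates 2 and 4 these were log2 -6.34 and -2.32. Without aged_WT replicate 7 Clec4e did not pass (log2 -1.67, edgeR adjusted p = 0.108).

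Receptor genes of the member chemokines were measured too, and Cxcr1, Cxcr2 and Ccr1 rose in aged_KO against aged_WT, while with all 12 libraries in 1 fit Cxcr2 and Ccr1 did not pass (edgeR adjusted p = 0.183 and 0.117). Cxcr1 was at 10.9 ± 1.04 CPM in aged_KO, against 2.98 ± 0.789 CPM in aged_WT (log2 2.05 ± 0.23, edgeR adjusted p = 0.000677). Cxcr2, the CXCL2 receptor of neutrophils and also a member of the mature neutrophil list, was at 808 ± 145 CPM in aged_KO, against 439.5 ± 93.4 CPM in aged_WT (log2 1.06 ± 0.20, edgeR adjusted p = 0.00564), and Ccr1, a CCL3 receptor, at 382 ± 43.0 CPM in aged_KO, against 222 ± 58.3 CPM in aged_WT (log2 0.97 ± 0.20, edgeR adjusted p = 0.00822). In MN1_KO against aged_KO these 3 genes fell, in the order Cxcr1, Ccr1 and Cxcr2 (log2 -4.44 ± 0.50, -1.77 ± 0.34 and -1.99 ± 0.45, edgeR adjusted p = 0.000769, 0.0046 and 0.00829). The difference between the knockout effects passed for Cxcr1 (log2 -4.79, edgeR adjusted p = 0.00838), and was log2 -3.95 without labelled MN1_WT replicates 2 and 4. In MN1_KO against labelled MN1_WT no gene of these lists passed in the fit of the 6 libraries. With all 12 libraries in 1 fit 1 of the 15 other feedback genes and 1 of the 25 other cytokines and effectors fell, and a receptor gene fell too.

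Il1b and its neighbours on the other strand and in the pathway were looked at more closely after the values had been seen. Il1bos, annotated as antisense to Il1b, was at 4.89, 4.76 and 1.57 CPM in MN1_KO replicates 5, 7 and 8, against 0.356, 1.16 and 0.160 CPM in the libraries labelled MN1_WT replicates 2, 3 and 4. Its order over the 6 libraries was close to that of Mn1, and its highest values stood in the 2 libraries with the lowest Il1b. The difference did not pass (log2 2.74 ± 0.76, edgeR adjusted p = 0.292), and it did with all 12 libraries in 1 fit (log2 2.70, edgeR adjusted p = 0.0418). Without labelled replicates 2 and 4 it was log2 1.79 (edgeR adjusted p = 1.00). In aged libraries Il1bos was at 0.274, 0.282 and 0.121 CPM in aged_KO, against 0.431, 0.372 and 0.304 CPM in aged_WT, and it rose in MN1_KO against aged_KO by log2 3.57 ± 0.68 (edgeR adjusted p = 0.0045) while Il1b fell. As a share of the Il1b count, Il1bos came to 48.2%, 51.8% and 7.74% in MN1_KO replicates 5, 7 and 8, against 0.468%, 4.52% and 0.224% in the labelled MN1_WT libraries and 0.139% to 0.489% in the 6 aged libraries. What part of these reads belongs to which strand was not tested.

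The balance of antagonist to ligand, Il1rn TPM over Il1b TPM, was also chosen after the values were seen. It was 1.33, 3.84 and 2.39 in MN1_KO libraries, against 0.411, 0.704 and 0.587 in libraries labelled MN1_WT. Every MN1_KO library lay above 1 and every labelled MN1_WT library below it, replicate 3 included, so the groups did not overlap. The mean log2 ratio was 1.2 ± 0.77 in MN1_KO and -0.85 ± 0.39 in labelled MN1_WT (SD, n = 3 each), a difference of 2.05. No p-value is given for it, because the ratio was chosen for this difference. With 3 libraries against 3, an exact permutation test cannot give a p below 0.1. In aged marrow the ratio was 0.207, 0.167 and 0.253 in aged_KO, against 0.270, 0.397 and 0.184 in aged_WT, and the groups overlapped (difference of mean log2 -0.39).

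**Figure D4:**
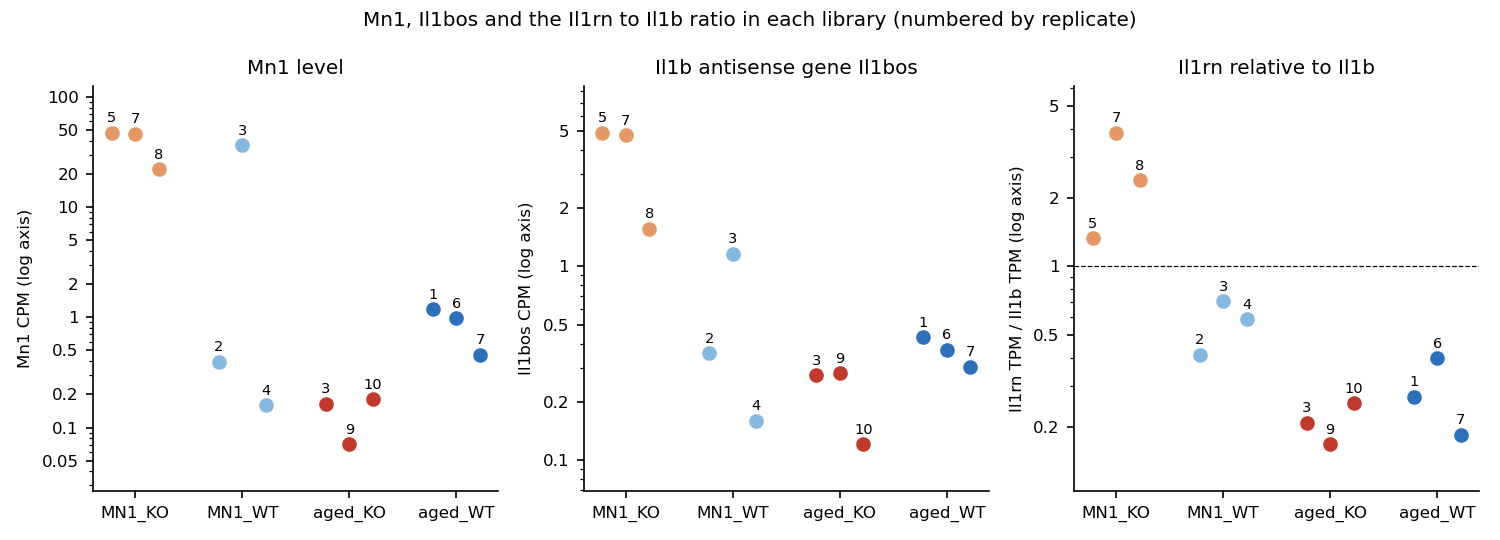
Mn1 CPM, Il1bos CPM and the ratio of Il1rn TPM to Il1b TPM on log axes, with 1 point per library, numbered by replicate. Mn1 and Il1bos are highest in MN1_KO replicates 5 and 7, and the ratio is above 1 (dashed line) in the 3 MN1_KO libraries and below 1 in the other 9 libraries.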

How the data were processed

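RNA of mouse bone marrow cells was sequenced from TruSeq stranded mRNA libraries, per the labels' protocols. The authors aligned and quantified reads with Bowtie2 2.3.4.3 and RSEM 1.2.28 on mm10, per the submitters' processing notes. They deposited 2 tables of expected counts, TPM and FPKM per gene symbol, and FPKM values were not used. No mitochondrially encoded gene is in the tables (0 rows). Groups come from the sample titles.

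Expected counts as deposited by the authors were rounded, filtered with filterByExpr (minimum count 10, minimum total 15), scaled with TMM and tested with edgeR 4.0.16 (R 4.3.3), using its robust quasi-likelihood F test and Benjamini-Hochberg adjustment over all genes, with a threshold of 0.05. Both knockout comparisons were fitted on the 6 libraries of their own table, and the other 3 as contrasts of 1 fit over all 12 libraries. An SE is the log2 change divided by the square root of F. CPM is the expected count scaled by the library total, with no TMM factor, so a fold of mean CPM can differ from the fitted change. TPM values, as the authors deposited them, served for levels between genes. The alternatives were DESeq2 1.42.0, RLE size factors, library totals, no filter, another set of libraries in the fit, removal of each library in turn, and removal of the libraries labelled MN1_WT replicates 2 and 4. Replicate pairs differed by more than sampling noise (mean chi-square per gene 16.9 to 379.5). The edgeR fits of both knockout comparisons were also run on simulated counts, and no result here rests on them. Gene means there were shared by all libraries apart from changes set between groups. The mixed Mn1 levels of the labelled MN1_WT group were therefore not modelled. Intervals cover counting error only and not the spread between libraries, and reads carry no molecular identifiers.

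The members and gene lists were chosen with earlier results of these data known. All 10 members are named in each comparison, and of each pathway list up to 3 genes with the smallest adjusted p among those that passed. Counts over the list of chemokine receptors are not reported here. Promoter windows are from RefSeq, GRCm38.p6, and positions from GENCODE vM21.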

Additional observations from a re-analysis of the deposited data

Results flagged for a closer look

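Among the 10 genes, the fitted knockout effect differed between MN1 marrow and aged marrow for Il1a and Bcl3, by the test of the difference itself. The knockout groups were not alike in Hopx, at 3.31 CPM in MN1_KO and 0.0403 CPM in aged_KO. Hopx passed the same test (log2 6.12, edgeR adjusted p = 0.0134), and the part of this in the members' differences was not tested. For Il1a the knockout's change with MN1 overexpression exceeded its change in aged marrow by log2 2.95 (SE 0.64, edgeR adjusted p = 0.0378). Il1a was lower in 3 of 3 aged_KO libraries than in any aged_WT library, while MN1_KO libraries lay on both sides of the libraries labelled MN1_WT. For Bcl3 the difference was log2 -2.31 (SE 0.51, edgeR adjusted p = 0.0393). Bcl3 was higher in 3 of 3 aged_KO libraries than in any aged_WT library, while MN1_KO replicate 8 lay above labelled MN1_WT replicate 3. Both differences use the libraries labelled MN1_WT replicates 2 and 4, whose Mn1 level went against the label. Their log2 values were 3.25 and -1.46 without those libraries and did not pass. Both calls were also lost in 10 of the 12 removals of 1 library, and with no filter on low counts only Bcl3 passed.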

How the results depend on the processing

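No paired analysis was possible because the groups compared share fewer than 2 replicate numbers. Of the members' log2 changes, 242 of the values under settings other than library removal kept their direction and side of the threshold, 12 turned sign, 12 newly passed and 4 no longer passed; with 1 library removed these counts were 315, 15, 10 and 20.

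With all 12 libraries in 1 fit, aged_KO against aged_WT had 818 genes and 1 member past the threshold in place of 4008 and 2, and MN1_KO against MN1_WT had 464 genes in place of 0. With DESeq2, 565 genes and 2 members passed in MN1_KO against MN1_WT, 1791 and 5 in MN1_WT against aged_WT (499 and 0 with edgeR), and 1685 and 4 in the difference of knockout effects (463 and 2). RLE size factors gave 1 member in MN1_WT against aged_WT, and no filter on low counts gave 1 in the difference. Without labelled MN1_WT replicates 2 and 4, 2465 genes and 2 members passed in MN1_WT against aged_WT, and 40 genes and 0 members in the difference. The causes were not tested.

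With 1 library removed, genes past the threshold ran from 2402 to 4599 and members from 2 to 4 in aged_KO against aged_WT, from 0 to 896 and from 0 to 2 in MN1_KO against MN1_WT, from 78 to 397 and from 0 to 1 in MN1_WT against aged_WT, from 2515 to 7366 with 8 members throughout in MN1_KO against aged_KO, and from 53 to 3337 and from 0 to 5 in the difference. For aged_KO against aged_WT the low counts were 2402 without aged_WT replicate 7 and 2560 without replicate 6. For MN1_KO against MN1_WT, 896 genes passed without MN1_WT replicate 3 and 3 without MN1_KO replicate 5. For MN1_WT against aged_WT, removal of aged_WT replicates 1, 6 or 7 gave 135, 78 and 103 genes and of MN1_WT replicate 2 gave 130. For MN1_KO against aged_KO, removal of aged_KO replicates 3 or 9 gave 3083 and 2515 and of MN1_KO replicates 5 or 7 gave 3369 and 3234. In the difference, 9 of the 12 removals left no member past the threshold, and Il1a then ran from log2 2.54 to 3.27 and Bcl3 from -2.80 to -2.10 over all 12.

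Signs turned only for members that had not passed. In aged_KO against aged_WT, Il1b was -0.00 with library totals and ran from -0.25 to 0.47 with 1 library removed, and Ccl3 from -0.41 to 0.56. In MN1_KO against MN1_WT, Tnfaip3 was -0.01 with all 12 libraries, DESeq2 or RLE and -0.23 without labelled replicates 2 and 4, where Tnf, Nfkbia and Cxcl2 were 0.90, 0.29 and 0.17; with 1 library removed Tnfaip3 ran from -0.18 to 0.16, Il1rn from -0.45 to 0.46 and Il1a from -0.05 to 0.66. In MN1_WT against aged_WT, Bcl3 was -0.73 without those replicates and ran from -0.04 to 0.44. In MN1_KO against aged_KO, Il1rn and Tnfaip3 were 0.26 and 0.21 with library totals, and Il1rn ran from -0.57 to 0.32. In the difference, Tnf was 0.54 without those replicates, and Il1rn ran from -0.26 to 0.64. Library totals moved the median of all genes from -0.02 to -0.20, from 0.06 to 0.22, from 0.08 to 0.46 and from 0.08 to 0.28 in aged_KO against aged_WT, MN1_WT against aged_WT, MN1_KO against aged_KO and the difference. Depth limits Il1a, at 2 or 3 counts in each aged_KO library.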
